A study of Homo sapiens with 32 samples.

Results

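Mitosis genes encode the proteins that take a cell from entry into division to the separation of its daughters, and 35 of them were followed through every library of this series. They were chosen by name, as a fixed list of mitotic kinases, cyclins, checkpoint, kinetochore, spindle and cytokinesis genes, and the rule uses no measured value, although the list was drawn up with earlier results of these data known. All 35 were found once in each of the 2 gene count tables, among 57773 genes. The list falls into 6 roles: entry kinases and cyclins, spindle checkpoint and anaphase, centromere and kinetochore, spindle motors and assembly, midzone and cytokinesis, and chromosome structure and proliferation. The first role holds CCNB1, CCNB2, CDK1, CDC25B, CDC25C, PLK1, AURKA, AURKB, NEK2 and TTK. Its name is a short label, since not all of these act only at entry. AURKB is counted there, but INCENP and BIRC5 under centromere and kinetochore.

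The libraries were made from total RNA, depleted of ribosomal RNA, of HEK293, a long-established cell line from human embryonic kidney. The cells had been transiently transfected with a plasmid for AT1R, the type 1 angiotensin II receptor (gene AGTR1), and were moved to medium without fetal calf serum before the stimuli, in control libraries too. They then received nothing (control), 1 nmol/l angiotensin II (AII), 10 µg/l epidermal growth factor (EGF) or AII+EGF for 6 h or 24 h. Every condition has 4 libraries, named c01 to c16 at 6 h and b01 to b16 at 24 h, except AII+EGF at 24 h with 3, since library b08 was not analysed here. In a transient transfection not every cell takes up the plasmid, and no library of untransfected cells was analysed here.

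Mitotic genes are transcribed in waves. Most are kept low in G1 by repressor complexes that sit on promoter elements called the cell cycle genes homology region (CHR), and are switched on in G2 by complexes with B-MYB and FOXM1 that use the same elements, often together with CCAAT boxes bound by NF-Y. Their mRNAs are therefore widely read as a gauge of how many cells are in or near division. EGF is a mitogen for many epithelial cells. In bulk RNA, fewer cells in division and less mitotic mRNA per cell cannot be told apart.

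Reads were counted per gene, and FPM here means CPM, the count of a gene relative to its library's total, with totals scaled by the trimmed mean of M-values (TMM). Protein-coding CPM are relative to the unscaled total on protein-coding genes only. Totals ran from 3881841 to 8540815 counts at 6 h and from 6646227 to 33070903 at 24 h, of which 81.4% to 84.7% and 20.8% to 63.4% fell on protein-coding genes. Genes of the U1 small nuclear RNA took 0.0317% to 0.300% of the counts at 6 h but 8.90% to 57.2% at 24 h, so FPM values of the 2 times are not on a common scale. AGTR1 had 4108 to 10709 counts at 6 h and 3585 to 11557 at 24 h. Among the HEK293 markers EYA1, LHX1, VIM, KRT8, KRT18, NEFL and NEFM were detected in every library, whereas PAX2 had 0 to 10 counts. Markers of blood, endothelium and hepatocytes had at most 11 counts in any library, as did COL1A2, DCN and LUM of the 4 fibroblast markers. The fourth, COL1A1, had 57 to 143 counts at 6 h and 85 to 345 at 24 h. The early growth factor target EGR1 was higher with EGF by log2 4.48 (SE 0.17) at 6 h and 2.53 (SE 0.19) at 24 h.

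Differences were tested with edgeR's quasi-likelihood test across 18618 genes at 6 h and 22174 at 24 h, with Benjamini-Hochberg adjusted p (FDR). A gene was called at FDR below 0.05, a fold change above 1.5 and more than 5 FPM. In the comparisons between the 2 times the FPM limit was not applied, to the list or to all genes. All 35 mitosis genes passed the filter on low counts. Nothing in the labels says whether libraries of a group came from separate cultures, so p-values measure the spread between these libraries, which may be technical.

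The mitosis genes were well covered. A library held 19861 to 42803 counts on the 35 genes at 6 h and 18605 to 50148 at 24 h, and a single gene had at least 72 counts at 6 h and 45 at 24 h. The median coefficient of variation between libraries of a condition was 6.65% at 6 h and 11.02% at 24 h. In unstimulated cells at 6 h the steadiest gene was DLGAP5, a spindle assembly factor, at 0.738%, and the most variable was PTTG1, the separase inhibitor securin, at 20.7%. The 24 h extremes were PRC1, which bundles midzone microtubules, at 2.74% and again PTTG1 at 28.3%.

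Per kilobase of exon, the level in unstimulated cells at 6 h differed widely between the genes. TOP2A, the topoisomerase that untangles chromosomes, was highest at 138 ± 7.9 protein-coding CPM per kilobase (SD, n = 4), above TPX2, the spindle activator of Aurora A, at 82.1 ± 3.1. CCNB1, cyclin B1, at 76.7 ± 1.3 and CDC20, the activator of the anaphase-promoting complex, at 62.8 ± 4.8 followed. TPX2 and CCNB1 are neighbours in this order whose means lay only slightly farther apart than the sum of their SDs. The centromeric histone CENPA (11.9 ± 1.3) and CDC25C (11.8 ± 1.3), a phosphatase that activates CDK1, were lowest and overlapped. Exon lengths came from a later annotation than the counts, so these levels are approximate.

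**Figure D1:**
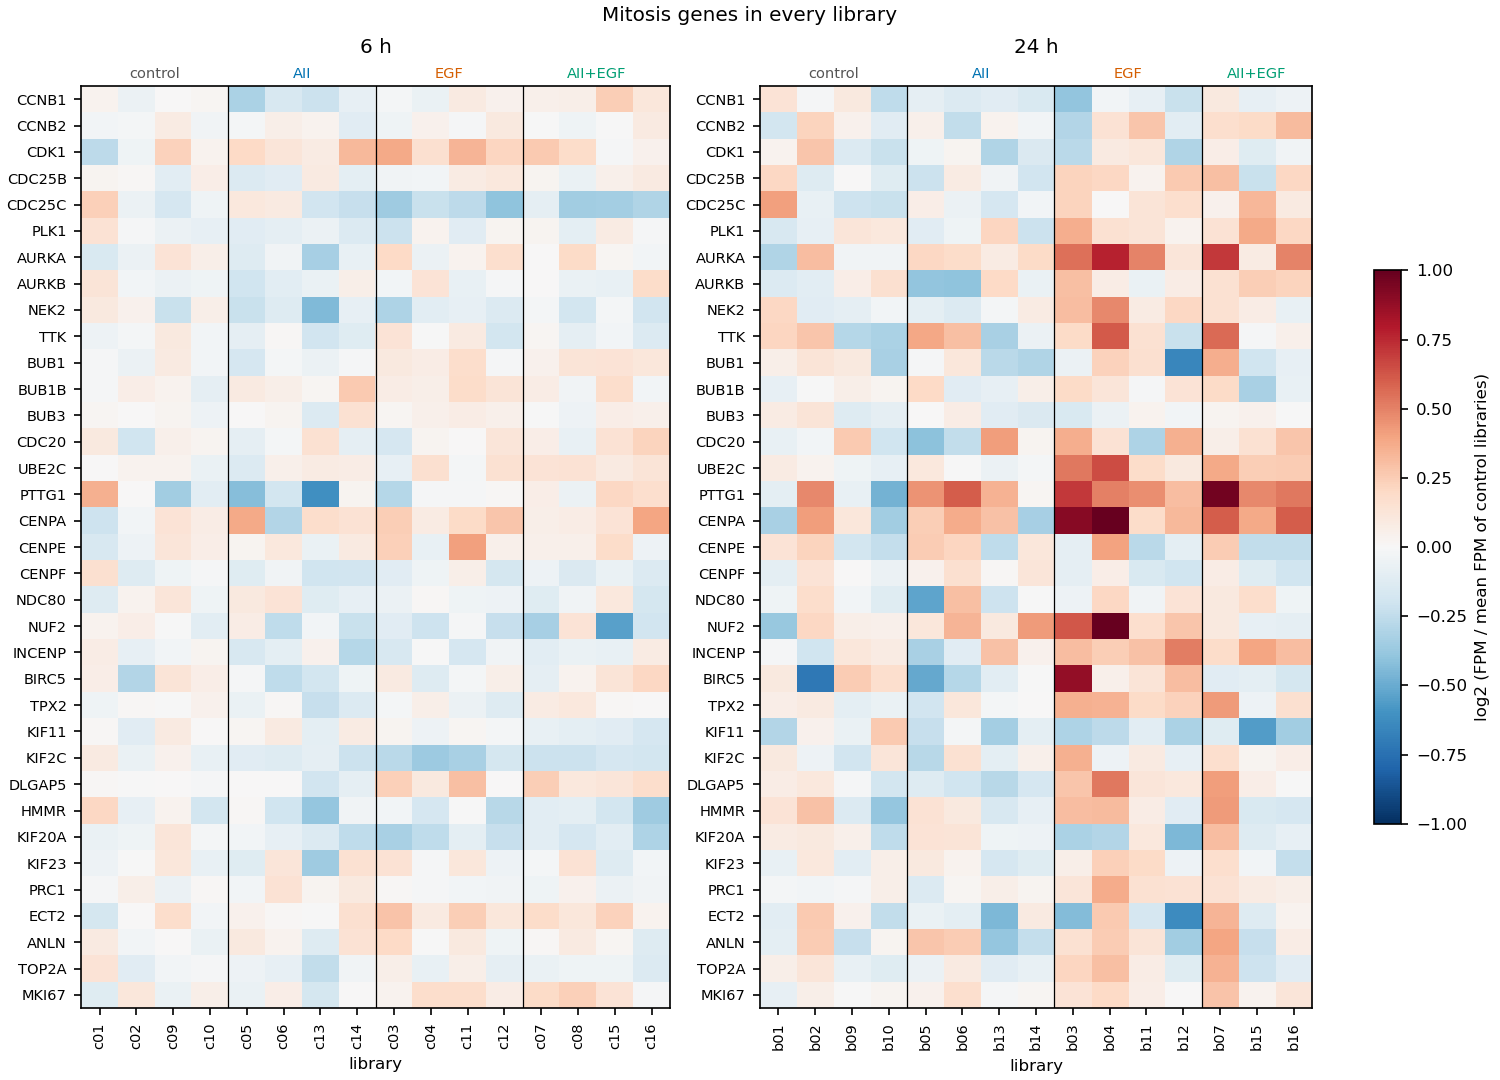
Each row is 1 of the 35 mitosis genes and each column 1 library, at 6 h (16 libraries) and 24 h (15 libraries). Colour is log2 of FPM over the mean FPM of the control libraries of the same time, and colours stop at 1 in either direction. The 6 h side is pale throughout, and the darkest red cells are CENPA, NUF2, PTTG1, BIRC5 and AURKA at 24 h, in EGF libraries b03 and b04 and AII+EGF library b07.

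Promoters of the mitosis genes carried the 2 classical elements more often than promoters at large. RefSeq windows of 250 bases before a start site (GRCh38.p14) were found for 29 of the 35 genes, in 39 windows. Both strands were searched. The CHR letters TTTGAA stood in 19 of the 39 windows, 48.7%, against 13.3% of all 35116 windows. The CCAAT letters stood in 28, 71.8%, against 32.0%. Both stood in 16, 41.0%, against 4.69%. The 2 searches can overlap by shared bases. These are letter matches, not measured sites. The windows are printed for 4 genes on which the results turn: KIF2C, lower with EGF at 6 h, CDC20 and CCNB1, lower in 24 h than in 6 h control libraries, and MKI67, higher there. Capitals mark TTTGAA and CCAAT matches on either strand, and each window is read 5′ to 3′ on its gene's strand. They lie at chr1:44739587-44739836 (plus strand), chr1:43358731-43358980 (plus), chr5:69166900-69167149 (plus) and chr10:128126424-128126673 (minus).
KIF2C: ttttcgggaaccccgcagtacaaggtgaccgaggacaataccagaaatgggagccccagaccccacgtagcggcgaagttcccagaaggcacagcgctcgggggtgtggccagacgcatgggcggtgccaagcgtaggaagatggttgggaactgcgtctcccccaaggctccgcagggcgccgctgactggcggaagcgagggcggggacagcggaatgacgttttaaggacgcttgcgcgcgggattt
CDC20: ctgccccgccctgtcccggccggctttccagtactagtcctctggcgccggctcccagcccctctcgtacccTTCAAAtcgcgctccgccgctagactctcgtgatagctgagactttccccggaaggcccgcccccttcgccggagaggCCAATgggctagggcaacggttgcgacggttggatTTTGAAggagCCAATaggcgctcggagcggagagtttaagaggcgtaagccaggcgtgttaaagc
CCNB1: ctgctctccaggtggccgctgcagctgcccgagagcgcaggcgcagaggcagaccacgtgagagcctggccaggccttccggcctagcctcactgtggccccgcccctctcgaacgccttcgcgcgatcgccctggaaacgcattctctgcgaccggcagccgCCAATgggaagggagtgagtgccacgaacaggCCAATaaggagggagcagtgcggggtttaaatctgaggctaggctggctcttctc
MKI67: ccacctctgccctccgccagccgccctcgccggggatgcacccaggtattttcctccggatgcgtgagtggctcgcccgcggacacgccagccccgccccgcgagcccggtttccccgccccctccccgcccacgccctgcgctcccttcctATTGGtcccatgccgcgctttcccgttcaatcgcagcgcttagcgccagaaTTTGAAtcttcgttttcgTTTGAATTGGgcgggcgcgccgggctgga
CDC20 had CCAAT matches starting 55 and 100 bases before its start site and TTTGAA matches at 65 and 178. MKI67 had CCAAT at 24 and 98 and TTTGAA at 29 and 47, where the nearer pair runs together. CCNB1 had CCAAT at 55 and 87 and no TTTGAA in this window, and KIF2C had neither.

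AII alone was compared with control at 6 h to ask what the receptor does without EGF. No mitosis gene was called, by edgeR or by DESeq2, and neither was any of the 18618 genes tested by edgeR (0%). The median log2 fold change was -0.06 over the 35 genes and 0.00 over all genes, and 24 of the 35 lay below 0. At an unadjusted p below 0.05 stood CCNB1, NEK2, a centrosome kinase, and PTTG1, all 3 with negative values, 8.57% of the list against 4.54% of all genes (2.33% in this direction). CCNB1, the cyclin that drives entry into mitosis with CDK1, was at 159, 149, 155 and 157 FPM in the control libraries at 6 h, 124, 138, 134 and 146 in AII, 153, 148, 165 and 159.6 in EGF and 161, 161, 184 and 168 in AII+EGF libraries. All 4 AII libraries lay below the 4 control libraries. AII and control libraries did not overlap in 2 of the 35 genes, CCNB1 and KIF2C, against 2.14% of all genes. The log2 difference of CCNB1 with AII was -0.19 (SE 0.07, edgeR FDR 0.987). Every 95% confidence interval of the 35 genes stayed within 1.5-fold of control.

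EGF at 6 h was compared with control to ask what the growth factor does on its own. No mitosis gene was called by edgeR or DESeq2, against 1.73% of all genes (322 genes). At FDR below 0.05 alone, whatever the fold, 1 mitosis gene of 35 (2.86%) was lower and 0 were higher, against 2.37% of all genes lower, 3.6% higher and 5.97% in all. That gene was KIF2C, a kinesin that takes microtubules apart at kinetochores and corrects wrong attachments. The median log2 fold change was 0.01 over the list and -0.01 over all genes.

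KIF2C lies at chr1:45205490-45233439 on the plus strand of GRCh37, in 22 exon blocks. At 6 h KIF2C stood at 127, 114, 123 and 113 FPM in control, 110.3, 109, 112 and 103 in AII, 98.7, 92.8, 95.2 and 106 in EGF and 103, 103, 106 and 105 in AII+EGF libraries. The 4 EGF libraries all lay below the 4 control libraries, and so did the 4 libraries of AII and of AII+EGF. Such a lack of overlap was found in 12% of all genes with EGF, 2.14% with AII and 12.1% with AII+EGF. KIF2C fell by 0.28 on the log2 scale with EGF (SE 0.07, 95% confidence interval -0.42 to -0.14, edgeR FDR 0.013). The FDR was 0.0999 when genes with low counts were kept in the fit, and 0.0526 without EGF library c11. Within the first run the EGF difference was -0.33 and within the second -0.23. An antisense gene overlaps 4.80% of the KIF2C exons and had 6 to 20 counts per library at 6 h against 391 to 872 for KIF2C. Whether counting used the strand is not stated.

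The other largest EGF effects at 6 h were those of CDC25C and CDK1. CDC25C, the phosphatase that removes the inhibitory phosphates of CDK1, was at 38.4, 31.3, 28.9 and 31.6 FPM in the control libraries at 6 h, 34.997, 34.6, 28.5 and 27.8 in AII, 25.5, 27.9, 27.1 and 24.6 in EGF and 30.6, 25.6, 25.8 and 26.5 in AII+EGF libraries. The EGF libraries all lay below the control libraries. The log2 difference was -0.30 (SE 0.11, edgeR FDR 0.101). A gene on the opposite strand, FAM53C, overlaps 8.80% of the CDC25C exons, and its counts were not compared with those of CDC25C. CDK1, the kinase at the centre of mitotic entry, had 103, 119.8, 145 and 126 FPM in the control libraries, 141, 134, 130.3 and 155 in those with AII, 160.1, 138, 156 and 143 with EGF and 148, 140.0, 122 and 127 with AII+EGF at 6 h. Control library c09 lay inside the EGF range, so the groups overlapped. The CDK1 difference was 0.27 (SE 0.09, edgeR FDR 0.080), and its FDR was 0.021 without that control library, 0.044 in DESeq2 and 0.031 with low counts kept. Of this pair, the phosphatase thus had a negative and its substrate a positive value.

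KIF20A, a kinesin of the spindle midzone, was at 104, 106, 119 and 108 FPM in the control libraries at 6 h, 107, 103, 99.2 and 91.8 in AII, 87.2, 91.7, 102 and 93.1 in EGF and 101, 97.0, 101 and 88.4 in AII+EGF libraries. These EGF libraries too lay below all control libraries, with a difference of -0.22 (SE 0.08, edgeR FDR 0.082, or 0.049 when the fit held protein-coding genes only). DLGAP5 (0.16) and ECT2 (0.18), the exchange factor that starts the cleavage furrow, made up the 6 genes with an unadjusted p below 0.05 together with KIF2C, CDC25C, CDK1 and KIF20A. That is 3 genes in each direction and 17.1% of the list, against 20.2% of all genes, 10.2% higher and 10% lower. In 3 of the 35 genes, CDC25C, KIF2C and KIF20A, EGF and control libraries did not overlap, against 12% of all genes.

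Among the 10 entry kinases and cyclins, CDC25C and CDK1 alone had an unadjusted p below 0.05 with EGF at 6 h. At 6 h PLK1, the polo-like kinase of entry and spindle assembly, stood at 138, 124, 119.6 and 118 FPM in control, 115, 117, 119.6 and 114 in AII, 107, 128, 116 and 127 in EGF and 127, 116, 132 and 124 in AII+EGF libraries. AURKA, the Aurora kinase of centrosomes and spindle poles, was at 48.6, 51.8, 59.2 and 56.2 FPM in the control libraries at 6 h, 49.3, 52.7, 42.9 and 51.2 in AII, 62.1, 51.7, 55.4 and 60.7 in EGF and 54.2, 61.8, 54.8 and 52.9 in AII+EGF libraries. EGF and control libraries overlapped for both kinases. AURKB, the kinase of the chromosomal passenger complex, had 86.5, 77.7, 76.1 and 76.9 FPM in the control libraries, 69.04, 73.6, 75.9 and 82.7 in those with AII, 77.7, 87.0, 75.4 and 78.5 with EGF and 79.3, 75.9, 75.4 and 90.1 with AII+EGF at 6 h. The EGF differences were -0.06, 0.09 and 0.01, with 95% confidence intervals of -0.21 to 0.09 for PLK1, -0.10 to 0.28 for AURKA and -0.16 to 0.17 for AURKB. An opposite-strand gene overlaps 11.6% of the PLK1 exons, with 1 to 21 counts per library at 6 h against 433 to 1047 for PLK1.

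With EGF at 6 h, 0 of the 6 checkpoint and anaphase genes, 0 of the 7 centromere and kinetochore genes and 0 of the 2 chromosome genes had an unadjusted p below 0.05. CDC20 was at 112, 91.4, 109 and 107 FPM in the control libraries at 6 h, 98.5, 103, 117 and 98.4 in AII, 93.2, 107, 105 and 114 in EGF and 110.1, 99.3, 116 and 122 in AII+EGF libraries. At 6 h BUB1, a kinase that builds the checkpoint signal at kinetochores, stood at 146, 142, 158 and 145 FPM in control, 132, 146, 142 and 147 in AII, 158, 155, 167 and 147 in EGF and 153, 161, 163 and 160.0 in AII+EGF libraries. In both genes EGF and control libraries overlapped, with EGF differences of 0.00 (-0.18 to 0.18) and 0.09 (-0.05 to 0.22). The 6 h libraries gave TOP2A 802, 671, 716 and 724 FPM without stimulus, 704, 688, 613 and 712 in AII, 760.1, 691, 758 and 685 in EGF and 697, 707, 706 and 664 in AII+EGF libraries. CENPF, a large kinetochore protein, had 676, 553, 587 and 601 FPM in the control libraries, 556, 591, 527 and 529.8 in those with AII, 558, 585, 630.5 and 534 with EGF and 584, 548, 579 and 550.1 with AII+EGF at 6 h. Control library c01 was the highest of all 16 libraries in both genes. MKI67, which coats mitotic chromosomes and encodes the Ki-67 antigen used to count dividing cells, was at 519, 611, 539 and 586 FPM in the control libraries at 6 h, 539, 590.2, 499 and 567 in AII, 579, 636, 637 and 592 in EGF and 642, 667, 621 and 560.2 in AII+EGF libraries. The groups overlapped in all 3, and MKI67 differed by 0.12 with EGF (-0.04 to 0.27, edgeR FDR 0.397).

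**Figure D2:**
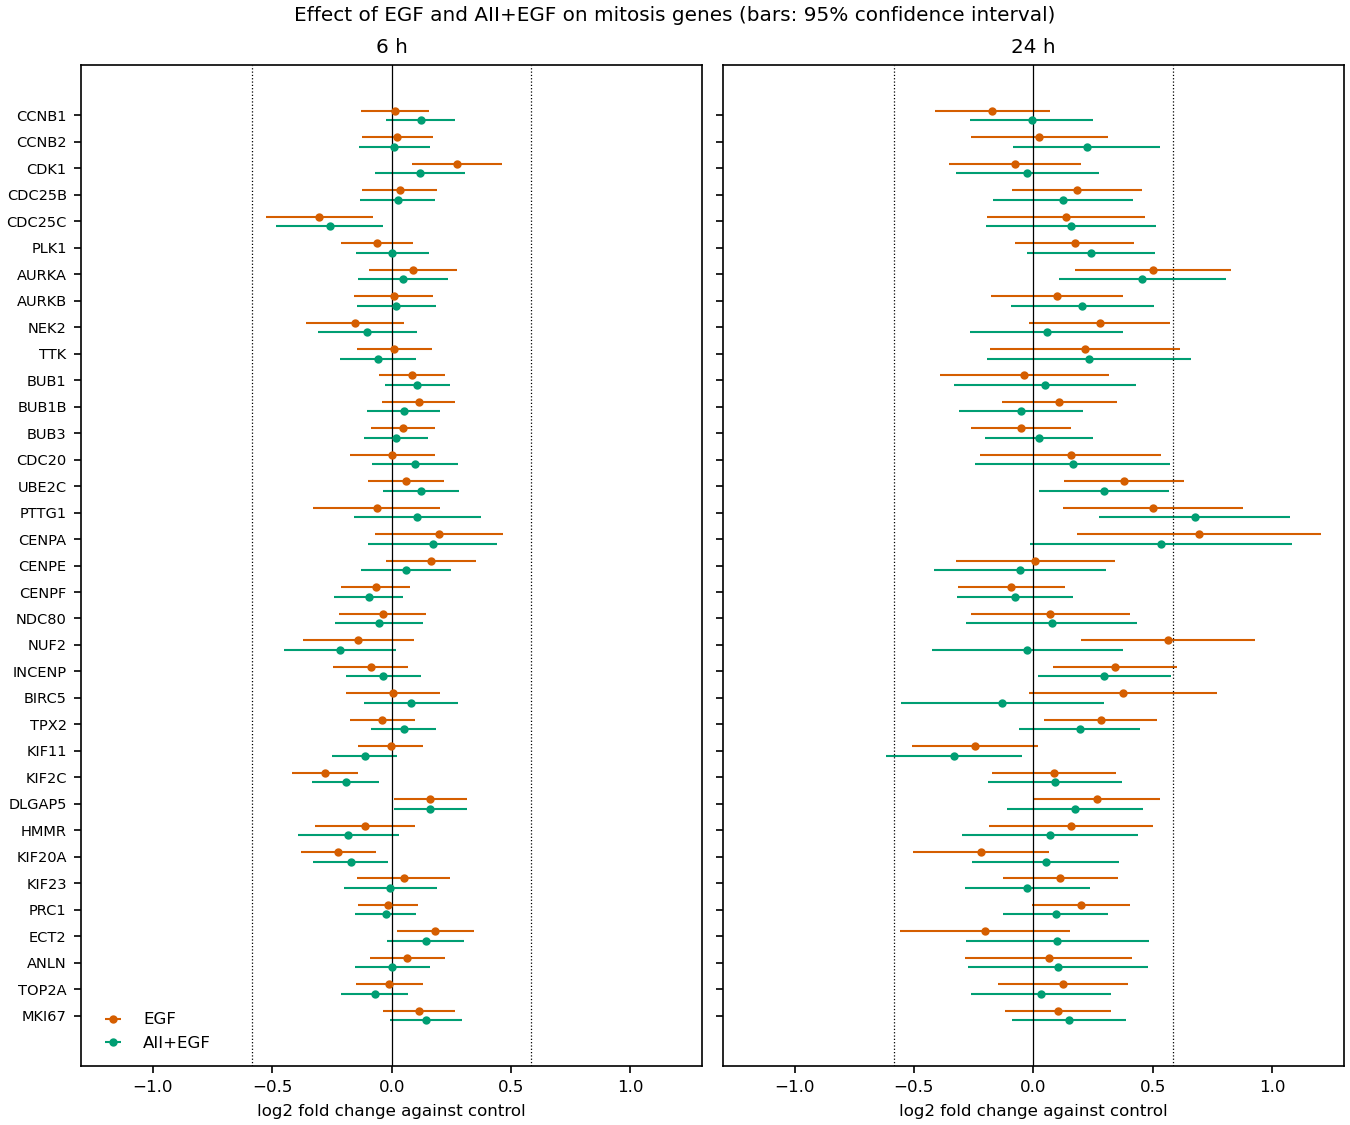
Log2 fold change of each mitosis gene against control, with 95% confidence intervals, for EGF (orange) and AII+EGF (green) at 6 h (left) and 24 h (right). Dotted lines mark a 1.5-fold change. At 6 h all intervals stay between the dotted lines; at 24 h the intervals are wider, and 8 of 35 for EGF and 5 of 35 for AII+EGF cross one.

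AII+EGF at 6 h was compared with control and with EGF to ask whether AII adds to the growth factor. These comparisons share the control or EGF libraries with those above. No mitosis gene was called against control by edgeR or DESeq2, nor at FDR below 0.05 alone, against 1.95% and 6.1% of all genes. The largest differences were those of CDC25C at -0.26 (SE 0.11), NUF2, an arm of the Ndc80 complex that holds microtubules, at -0.22 (SE 0.11), and KIF2C at -0.19 (SE 0.07, edgeR FDR 0.100). At 6 h NUF2 stood at 46.5, 47.4, 45.0 and 42.2 FPM in control, 47.6, 37.9, 44.5 and 38.8 in AII, 41.9, 39.1, 45.0 and 38.6 in EGF and 35.9, 49.8, 31.04 and 39.6 in AII+EGF libraries. The AII+EGF libraries overlapped those of control because c08 was the highest of all 16. In 5 genes the AII+EGF and control libraries did not overlap, above control in CCNB1, UBE2C and DLGAP5 and below it in KIF2C and KIF20A, against 12.1% of all genes. At an unadjusted p below 0.05 stood 4 genes, 11.4% against 18.9%.

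Set directly against EGF, AII+EGF gave no call among the 35 mitosis genes or all 18618 genes (0%) in edgeR, and no mitosis gene in DESeq2. The 35 differences ran from -0.15 for CDK1 to 0.17 for PTTG1, with a median of -0.01, and 0 had an unadjusted p below 0.05, against 7.26% of all genes. All 35 confidence intervals stayed within 1.5-fold. The interaction term, the AII+EGF effect less the sum of the effects of AII and EGF alone, gave no call either, and 0% of all genes. CCNB1 (0.30), PTTG1 (0.45) and KIF2C (0.22) had positive and CDK1 (-0.33) had a negative interaction at an unadjusted p below 0.05, with edgeR FDR from 0.592 to 0.603, 11.4% of the list against 8.01% of all genes (3.8% higher and 4.21% lower). PTTG1, securin, which guards the sister chromatids until anaphase, was at 64.3, 50.4, 39.5 and 46.8 FPM in the control libraries at 6 h, 37.5, 44.3, 32.9 and 51.2 in AII, 41.2, 49.8, 49.7 and 50.6 in EGF and 52.5, 48.1, 58.1 and 56.4 in AII+EGF libraries. The 4 control libraries alone spanned most of the range of PTTG1.

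At 24 h the differences were larger on average and mostly positive with EGF, but none passed the test. EGF gave no called mitosis gene in edgeR or DESeq2, against 0.0316% of all 22174 genes (7 genes). The median log2 fold change over the 35 genes was 0.12 with 27 above 0, beside 0.00 over all genes. At an unadjusted p below 0.05 stood 8 genes, all with positive values, 22.9% of the list against 8.48% of all genes (4% in this direction). They were AURKA, UBE2C, the ubiquitin-conjugating enzyme of the anaphase-promoting complex, PTTG1, CENPA, NUF2, INCENP, the scaffold of the passenger complex, TPX2 and DLGAP5. Their FDR lay between 0.341 and 0.584 and stayed between 0.140 and 0.798 in every alternative fit. The 8 were measured in the same libraries and are not independent of each other.

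CENPA, the histone H3 variant that marks centromeres, had 4.90, 8.22, 6.64 and 4.83 FPM in the control libraries, 7.31, 7.93, 7.52 and 4.88 in those with AII, 11.5, 13.9, 6.97 and 7.71 with EGF and 9.33, 7.99 and 9.37 with AII+EGF at 24 h. Its counts were the lowest of the list, 45 to 179 per library. EGF libraries b03 and b04 lay above all others, while b11 and b12 lay within the control range. The EGF difference was 0.69 (SE 0.25, 95% confidence interval 0.18 to 1.20, edgeR FDR 0.412). NUF2 was at 13.4, 20.2, 18.2 and 18.1 FPM in the control libraries at 24 h, 18.9, 22.1, 18.7 and 23.4 in AII, 26.9, 36.1, 19.6 and 21.1 in EGF and 18.7, 16.5 and 16.5 in AII+EGF libraries. Again b03 and b04 were highest, and the difference was 0.56 (SE 0.18, edgeR FDR 0.341).

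At 24 h AURKA stood at 18.2, 27.9, 21.9 and 21.9 FPM in control, 25.9, 25.5, 23.8 and 25.6 in AII, 32.9, 38.4, 31.8 and 24.5 in EGF and 36.6, 23.8 and 31.7 in AII+EGF libraries. In this gene 3 of 4 EGF libraries and 2 of 3 AII+EGF libraries lay above all control libraries, and the other libraries lay inside their range. The EGF difference was 0.50 (SE 0.16, 95% confidence interval 0.17 to 0.83, edgeR FDR 0.342). The 24 h libraries gave PTTG1 16.1, 24.1, 16.5 and 12.5 FPM without stimulus, 23.7, 26.3, 22.02 and 17.6 in AII, 28.3, 24.5, 23.9 and 21.5 in EGF and 33.7, 24.1 and 24.9 in AII+EGF libraries. Control library b02 overlapped the stimulated groups. EGF differed by 0.50 (SE 0.18, edgeR FDR 0.428).

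Only UBE2C, INCENP, TPX2 and PRC1 had EGF libraries at 24 h that did not overlap the control libraries, 11.4% of the list against 4.43% of all genes. UBE2C had 40.9, 39.5, 37.5 and 36.4 FPM in the control libraries, 41.5, 38.6, 37.1 and 38.1 in those with AII, 55.5, 60.5, 43.8 and 41.2 with EGF and 50.2, 45.7 and 46.1 with AII+EGF at 24 h. The EGF libraries of the first run, b03 and b04, were again the highest. INCENP was at 82.8, 72.7, 90.1 and 88.3 FPM in the control libraries at 24 h, 66.8, 77.3, 102 and 85.9 in AII, 103, 98.9, 102 and 119 in EGF and 94.9, 109.5 and 104 in AII+EGF libraries. The EGF differences of UBE2C and INCENP were 0.38 (SE 0.12, edgeR FDR 0.360) and 0.34 (SE 0.12, edgeR FDR 0.432).

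Of the 10 entry kinases and cyclins, 8 had EGF values above 0 at 24 h, with CCNB1 and CDK1 below it. At 24 h CCNB1 stood at 47.7, 43.1, 46.4 and 36.3 FPM in control, 40.7, 39.4, 40.0 and 38.9 in AII, 33.0, 42.6, 40.9 and 37.2 in EGF and 46.5, 40.9 and 42.0 in AII+EGF libraries. The 24 h libraries gave CDK1 41.5, 48.9, 36.7 and 34.6 FPM without stimulus, 39.3, 41.2, 32.7 and 36.7 in AII, 33.5, 43.0, 43.8 and 32.7 in EGF and 42.3, 37.2 and 39.5 in AII+EGF libraries. The EGF differences were -0.17 (95% confidence interval -0.41 to 0.07) and -0.08 (-0.35 to 0.20), both with overlapping groups. PLK1 and the Aurora kinase of the passenger complex also overlapped control. PLK1 had 40.9, 43.3, 49.7 and 49.3 FPM in the control libraries, 42.4, 44.5, 53.2 and 39.4 in those with AII, 59.0, 50.8, 50.2 and 46.9 with EGF and 50.6, 59.6 and 52.7 with AII+EGF at 24 h. AURKB was at 39.5, 40.3, 45.4 and 48.7 FPM in the control libraries at 24 h, 33.0, 32.8, 49.8 and 41.6 in AII, 53.6, 45.7, 41.6 and 45.8 in EGF and 48.2, 51.5 and 50.8 in AII+EGF libraries. PLK1 differed by 0.17 (-0.08 to 0.42) and AURKB by 0.10 (-0.18 to 0.38). By role, the median EGF difference at 24 h was 0.34 for centromere and kinetochore genes, 0.16 for entry kinases and cyclins and for spindle motors, 0.13 for checkpoint and anaphase genes, 0.11 for chromosome structure and 0.06 for cytokinesis genes. With AII+EGF at 24 h the medians of these roles were, in the same order, -0.02, 0.18, 0.09, 0.11, 0.09 and 0.09.

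At 24 h MKI67 stood at 396, 437, 419 and 427 FPM in control, 432, 471, 417 and 426 in AII, 462, 482, 439.8 and 422 in EGF and 512, 429 and 458 in AII+EGF libraries. The 24 h libraries gave TOP2A 336, 352, 307 and 297 FPM without stimulus, 309.6, 344, 298 and 307 in AII, 375, 398, 339 and 296 in EGF and 411, 280.1 and 299 in AII+EGF libraries. Both proliferation genes had overlapping groups and EGF differences of 0.10 (-0.12 to 0.33) and 0.12 (-0.15 to 0.40). CENPF had 261, 306, 279 and 268 FPM in the control libraries, 287, 311, 280.3 and 302 in those with AII, 261, 291, 249.9 and 242 with EGF and 294, 256 and 243 with AII+EGF at 24 h. KIF20A was at 41.1, 41.6, 40.2 and 32.6 FPM in the control libraries at 24 h, 42.8, 42.5, 37.8 and 37.5 in AII, 31.2, 31.7, 41.9 and 28.4 in EGF and 48.1, 35.6 and 36.7 in AII+EGF libraries. Both had negative EGF values, -0.09 and -0.22, and 3 of 4 EGF libraries of KIF20A lay below all control libraries.

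At 24 h CDC20 stood at 16.5, 17.1, 20.8 and 15.1 FPM in control, 13.02, 14.6, 23.1 and 17.7 in AII, 22.3, 19.19, 14.04 and 22.2 in EGF and 18.1, 19.3 and 21.03 in AII+EGF libraries. The 24 h libraries gave BUB1 51.9, 54.4, 53.3 and 39.9 FPM without stimulus, 49.4, 54.0, 41.5 and 40.5 in AII, 47.9, 58.7, 55.6 and 31.7 in EGF and 64.0, 43.4 and 47.1 in AII+EGF libraries. In both genes the EGF libraries reached above and below the control libraries, and the confidence intervals were -0.22 to 0.53 and -0.39 to 0.32. KIF2C had 45.4, 40.9, 37.0 and 46.1 FPM in the control libraries, 34.9, 47.0, 39.6 and 43.9 in those with AII, 54.3, 40.9, 45.0 and 40.0 with EGF and 47.6, 43.2 and 44.3 with AII+EGF at 24 h. CDC25C was at 18.7, 13.3, 12.2 and 12.1 FPM in the control libraries at 24 h, 14.7, 13.5, 12.5 and 13.8 in AII, 16.4, 14.1, 15.3 and 15.8 in EGF and 14.47, 17.7 and 14.96 in AII+EGF libraries. The 2 genes with the largest negative EGF values at 6 h had 24 h differences of 0.09 (-0.17 to 0.35) and 0.14 (-0.19 to 0.47).

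AII+EGF at 24 h, with 3 libraries, gave no called mitosis gene in edgeR or DESeq2, against 0.0271% of all genes. Its median over the list was 0.09, with 26 of 35 genes above 0, beside -0.01 over all genes. PTTG1 had the largest difference, 0.68 (SE 0.19, 95% confidence interval 0.27 to 1.08), followed by CENPA at 0.53 (SE 0.26) and AURKA at 0.46 (SE 0.17). The FDR of PTTG1 was 0.498 in edgeR but 0.045 with low counts kept in the fit and 0.049 with the library run as a block, both of which call it. It was 0.966 without AII+EGF library b07 (log2 difference 0.50) and 1.00 (log2 difference 0.74) without AII library b13 and AII+EGF library b16, in which U1 took more than 50% of the counts. At an unadjusted p below 0.05 stood AURKA, UBE2C, PTTG1 and INCENP with positive values and KIF11, the motor that pushes spindle poles apart, with a negative one (-0.33), 14.3% against 5.4% of all genes (2.92% higher and 2.48% lower). In PLK1, UBE2C and INCENP the libraries did not overlap those of control, 8.57% against 7.18% of all genes.

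AII alone at 24 h gave no called gene of the list or of all genes (0%) in edgeR, no mitosis gene in DESeq2, and 0 of 35 at an unadjusted p below 0.05, against 2.49% of all genes. Its median was -0.03, and the widest value was that of PTTG1, 0.37 (-0.002 to 0.75). AII+EGF set against EGF gave no call in the list or among all genes (0%). NUF2 (-0.59) and BIRC5 (-0.51), which encodes survivin, had unadjusted p below 0.05 there, 5.71% against 3.37% of all genes. The runs are not balanced here: b07 is the only AII+EGF library of the first run, beside EGF libraries b03 and b04. In the first and second run NUF2 differed from control by 0.91 and 0.17 with EGF, and by 0.15 and -0.14 with AII+EGF. BIRC5 differed by 0.77 and 0.01 with EGF, and by 0.13 and -0.35 with AII+EGF. The interaction term at 24 h gave no call (0% of all genes), with NUF2 alone at an unadjusted p below 0.05 (-0.83, edgeR FDR 1.00), 2.86% against 2.37%.

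**Figure D3:**
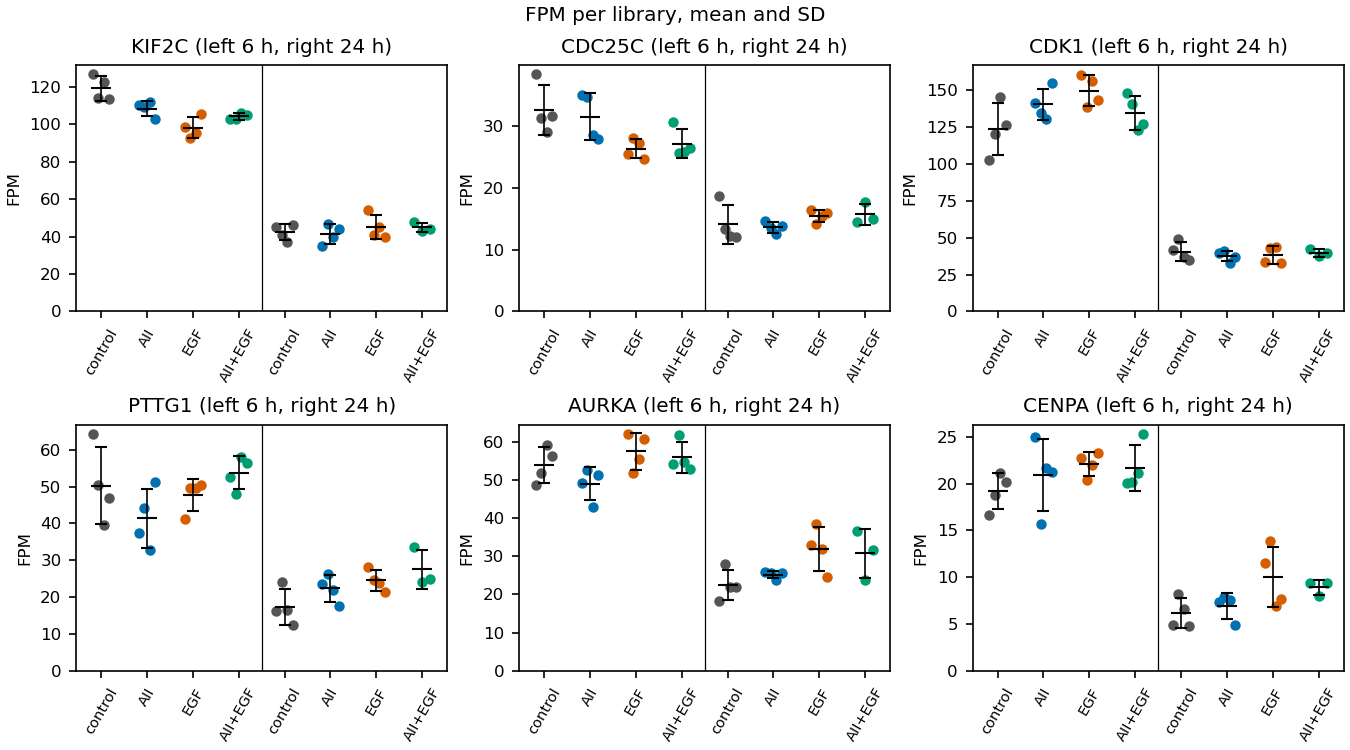
FPM of 6 mitosis genes in every library, with mean and SD, for control, AII, EGF and AII+EGF at 6 h (left of the line) and 24 h (right of it). The FPM scales of the 2 times are not comparable because U1 genes took many counts at 24 h. The EGF libraries of KIF2C and CDC25C all lie below the control libraries at 6 h (edgeR FDR 0.013 and 0.101), and at 24 h the EGF libraries of PTTG1, AURKA and CENPA overlap those of control.

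Precision differed between the times. For EGF the 95% confidence interval reached a median of 0.16 to either side of the value at 6 h and 0.28 at 24 h. At 6 h all 35 intervals for AII, EGF, AII+EGF and AII+EGF against EGF excluded a 1.5-fold change, as did 33 for the interaction. At 24 h that held for 31 genes with AII, 27 with EGF, 30 with AII+EGF, 31 for AII+EGF against EGF and 19 for the interaction. For CENPA, PTTG1, NUF2 and AURKA a 1.5-fold change with EGF at 24 h thus lay within the interval.

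The runs used here are a split of the library numbers in the labels, 1 to 8 and 9 to 16, and not batches that the labels name. The positive values at 24 h were larger in the first run. Within the first run the median log2 difference of the 35 genes from control was 0.17 for EGF and 0.22 for AII+EGF, and within the second 0.10 and 0.07. For AURKA the EGF values were 0.63 and 0.36, for CENPA 0.95 and 0.36, for NUF2 0.91 and 0.17, and for PTTG1 0.39 and 0.65. In AII+EGF library b07, 30 of 35 genes lay above the median of the 24 h libraries, and in EGF library b04 29 did. U1 took 8.90% to 22.9% of the counts in control, 12.2% to 33.5% in EGF and 10.3% to 55.6% in AII+EGF libraries at 24 h, and 8 of the 15 columns at 24 h, all 7 of the first run and b15, were named as filtered. Leaving out b13 and b16, or fitting protein-coding genes only, left no mitosis gene called in any 24 h comparison of treatments. The run block, which follows the filtered names except for b15, called PTTG1 with AII+EGF. Other than by these fits, the part of U1 and of the filtering in the results was not tested.

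Summed over the 35 genes, mitosis genes took a narrow share of the protein-coding counts. At 6 h the share was 0.638% ± 0.006 in control, 0.620% ± 0.027 in AII, 0.638% ± 0.021 in EGF and 0.625% ± 0.016 in AII+EGF libraries (SD, n = 4 each). At 24 h it was 0.593% ± 0.025, 0.594% ± 0.027, 0.619% ± 0.044 and 0.613% ± 0.049 (SD, n = 4, 4, 4 and 3). These SDs span both runs, and at 24 h the share was 0.598% to 0.671% in the first run and 0.561% to 0.599% in the second. Within the first run at 24 h it was 0.602% to 0.625% in control, 0.635% to 0.671% in EGF and 0.669% in the 1 AII+EGF library. Within the second it was 0.570% to 0.576% in control, 0.570% to 0.599% in EGF and 0.578% to 0.591% in AII+EGF libraries. No test was run on these shares.

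**Figure D4:**
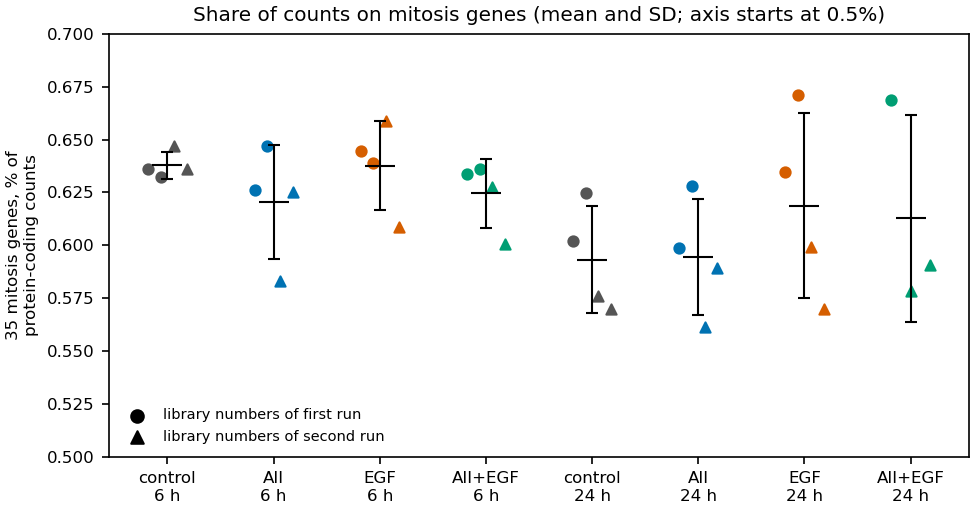
Share of protein-coding counts on the 35 mitosis genes in each library, with mean and SD per condition; circles are libraries of the first run and triangles those of the second, and the axis starts at 0.5%. The groups overlap at both times, and the 24 h circles lie at 0.598% or more and the triangles at 0.599% or less.

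The EGF effects at the 2 times were then compared in 1 fit of all 31 libraries, across 21932 genes. No mitosis gene was called for a difference in the EGF effect by edgeR or DESeq2, against 0.164% of all genes, nor for AII+EGF, against 0.123%. The median difference, 24 h less 6 h, was 0.13 for EGF and 0.10 for AII+EGF. NUF2 had the largest for EGF, 0.70 (SE 0.21, edgeR FDR 0.197), followed by PTTG1 (0.56), CDC25C (0.44), NEK2 (0.43) and INCENP (0.43). KIF2C differed by 0.36 (SE 0.14, edgeR FDR 0.328), so its lower level with EGF at 6 h was not shown to be particular to that time. At an unadjusted p below 0.05 stood 12 genes, 10 higher and 2 lower, 34.3% of the list against 10.1% of all genes (4.5% higher and 5.62% lower). For AII+EGF there were 4, CDC25C, AURKA, PTTG1 and INCENP, 11.4% against 7.49%.

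Unstimulated cells were compared between the times among the 14284 protein-coding genes tested. Here 5 mitosis genes were called, 14.3% of the list against 25.5% of all genes, and all 5 were lower at 24 h, as were 10.2% of all genes. They were CDC20, CCNB1, DLGAP5, CENPA and CDK1. At FDR below 0.05 alone 16 were lower and 5 higher, 60% of the list against 42.2% of all genes (20.3% lower and 21.9% higher), and the median was -0.22 beside 0.01 over all genes. The share of all genes whose libraries do not overlap between the times was not computed. A lack of overlap given below for single genes is thus not set against a background. Time and library set cannot be told apart: all 6 h libraries came from one set and all 24 h libraries from another, with U1 and protein-coding shares that do not overlap.

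CDC20 lies at chr1:43824652-43828874 on the plus strand of GRCh37. CDC20 had 132, 112, 132 and 129 protein-coding CPM in the 4 control libraries at 6 h and 40.1, 40.2, 48.8 and 35.6 at 24 h. No 24 h library of any condition reached the lowest 6 h library, the ranges being 31.5 to 54.1 and 112 to 142. CDC20 was lower by log2 1.59 at 24 h (SE 0.14, edgeR FDR 7.7e-12). The pseudogene CDC20P1 had 23 to 70 counts at 6 h and 14 to 75 at 24 h, and how reads shared between them were counted is not stated.

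CCNB1 lies at chr5:68462962-68474072 on the plus strand. In protein-coding CPM, CCNB1 was at 187, 182, 189 and 189 in control libraries at 6 h and at 116, 102, 109 and 85.3 at 24 h. The control libraries of the 2 times did not overlap, with a log2 difference of -0.84 (SE 0.09, edgeR FDR 6.0e-10). DLGAP5 had 125, 128, 128 and 126 protein-coding CPM in the 4 control libraries at 6 h and 83.8, 83.1, 76.2 and 67.6 at 24 h. In protein-coding CPM, CDK1 was at 121, 147, 176 and 152 in control libraries at 6 h and at 101, 115, 86.2 and 81.4 at 24 h. Neither gene had overlapping control libraries, and the differences were -0.68 (SE 0.10) and -0.61 (SE 0.11). CENPA had 19.6, 23.04, 25.6 and 24.3 protein-coding CPM in the 4 control libraries at 6 h and 11.9, 19.4, 15.6 and 11.4 at 24 h. The CENPA difference was -0.64 (SE 0.19, edgeR FDR 0.0076). The library run as a block was fitted separately at each time, so here it compares the first-run levels of the 2 times. That is another quantity than the main value, which averages both runs. In that fit CENPA was at -0.38 (edgeR FDR 0.120), CDK1 was under the fold limit (-0.52) and MKI67 past it, for 4 called genes. For CENPA, a neighbouring gene, SLC35F6, shares 7.08% of its exons on the same strand.

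MKI67, at chr10:129894923-129924687 on the minus strand, went the other way. In protein-coding CPM, MKI67 was at 610.4, 748, 655 and 707 in control libraries at 6 h and at 963, 1031, 984 and 1005 at 24 h. All 24 h libraries lay above all 6 h control libraries, and MKI67 was higher by 0.57 (SE 0.08, edgeR FDR 1.1e-07). BIRC5 (0.50), INCENP (0.35), UBE2C (0.34) and PRC1 (0.22) were the others higher at FDR below 0.05 alone. PRC1 is uncertain, since an antisense gene overlaps 34.3% of its exons, with 25 to 97 counts against at least 878. The count of called genes ran from 3 without control library b10 (CCNB1, CDC20 and DLGAP5) to 9 without b02.

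**Figure D5:**
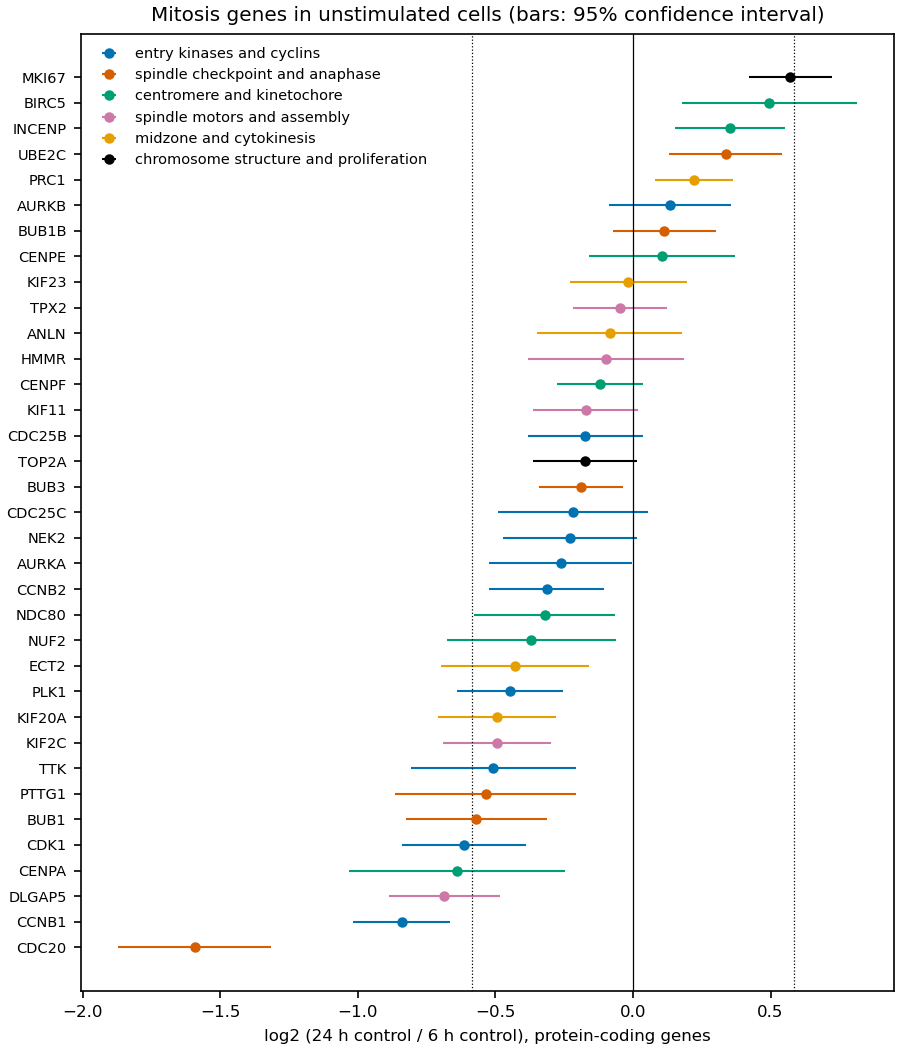
Log2 ratio of 24 h over 6 h control libraries for each mitosis gene, among protein-coding genes, with 95% confidence intervals, ordered by value and coloured by role. Dotted lines mark a 1.5-fold change. CDC20 lies far to the left at -1.59, MKI67 is highest at 0.57, and 27 of 35 genes lie below 0.

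Other cell cycle genes gave a background for these values. The list held 109 further G2/M genes and 60 genes of G1/S, which act in DNA replication. With EGF at 6 h none was called, and at FDR below 0.05 alone 1 G2/M gene was higher and 4 lower of 108 tested, and 1 G1/S gene was higher and 5 lower of 60, against 3.6% of all genes higher and 2.37% lower. Their medians were 0.01 and -0.05. The G2/M genes were KIF4A, CIT, KNTC1, KPNA2 and DSN1, and the G1/S genes ORC1, RRM2, MCM2, CDT1, LIG1 and MCM5. At 24 h no gene of either list passed with any treatment, and the EGF medians were 0.04 and 0.01, beside 0.12 for the 35 mitosis genes. Between control libraries of the 2 times, 28 of 109 G2/M genes and 12 of 59 G1/S genes were called, against 25.5% of all genes, with medians of -0.30 and -0.29. At FDR below 0.05 alone 11 G2/M genes were higher and 49 lower, and 4 G1/S genes were higher and 32 lower, against 21.9% and 20.3% of all genes.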

How the data were processed

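Per the labels and the study's methods, the authors clipped adaptors (Trim Galore with cutadapt 1.8.1), aligned paired reads to hg19 with TopHat2 2.0.14 (the series text names HISAT2) and counted reads per gene with featureCounts 1.4.6. The strand setting, the treatment of reads that fit several genes and the filtering named in 8 of the 24 h columns are not explained in the sources used here. Values as deposited by the authors are whole-number counts of each gene, not normalized. Columns were matched to samples by the names in the labels, and 0 per-sample columns were left out. One AII+EGF library at 24 h (b08) had no matched column and was not analysed here.

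Counts were fitted with edgeR 4.0.16 in R 4.3.3 (TMM, filterByExpr, quasi-likelihood test, Benjamini-Hochberg adjustment over all genes tested), in 1 fit of 4 conditions per time and 1 fit of 8 groups for differences between times. The comparison of control libraries between times used protein-coding genes. Replicates of a group differed beyond sampling noise, with a chi-square per gene of at least 1.95. The edgeR fit of 4 conditions per time was tested on simulated data, for EGF against control. The fit of 8 groups, DESeq2 and the fits with a block were not.

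The 35 genes, the other gene lists and the tests were chosen with earlier results of these data known. Values per library are given for CCNB1, CDK1, PLK1, AURKA, AURKB, CDC20, BUB1, CENPF, KIF20A, TOP2A, MKI67, any gene called, and the 3 genes with the largest difference for EGF and for AII+EGF at each time. UBE2C and INCENP were added after their values were seen. Promoters came from RefSeq (GRCh38.p14), and gene positions from GENCODE v44 lifted to GRCh37. DESeq2 1.42.0, its size factors, no low-count filter, other thresholds, protein-coding genes, a library run block and each library left out were the alternatives, and leaving out b13 and b16 was added after seeing the data. One marker gene is not reported here.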

Additional observations from a re-analysis of the deposited data

Results flagged for a closer look

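In 7 of 252 groups of 4 libraries, 1 library lay far from the other 3, where about 12.6 groups would by chance. AURKB in control at 6 h was 86.5 FPM in c01 against 76.1 to 77.7 in the others (gap 0.846 of the range). CCNB2 in control at 6 h was 68.98 in c09 against 63.5 to 64.3 (0.860). CDC25B with AII at 6 h was 70.5 in c13 against 60.3 to 61.7 (0.866), and UBE2C with AII at 6 h was 55.5 in c05 against 63.2 to 64.4 (0.869). PTTG1 with EGF at 6 h was 41.2 in c03 against 49.7 to 50.6 (0.909). At 24 h, KIF20A in control was 32.6 in b10 against 40.2 to 41.6 (0.850), and PRC1 with EGF was 163 in b04 against 137 to 140 (0.888). The number of such groups was below the number given by chance, and each of the 7 libraries appeared once.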

How the results depend on the processing

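Counts of called mitosis genes were recomputed under other thresholds, DESeq2, its size factors, no low-count filter, protein-coding genes, a library run block and with libraries left out. They moved in 3 comparisons. At FDR below 0.05 alone, without the fold limit and the FPM limit used within a time, EGF at 6 h called 1 gene (KIF2C). Control between times then called 21 in place of 5, with no FPM limit in either count. AII+EGF at 24 h called 1 (PTTG1) with no low-count filter and 1 with the library run block. With single libraries left out, the control count ran from 3 to 9, and the others stayed at 0. Of 73 results on single genes, 59 kept their side of the FDR limit under all alternatives, 10 lost it and 4 gained it under at least 1, and 0 changed sign. The limit was 0.05, or 0.01 in the alternative with that threshold. In control between times, CCNB2 and PRC1 lost it only at 0.01, with FDR up to 0.0466 and 0.0475 over all fits. The cause was not tested. Control between times called 4 with the library run block, without CDK1 and CENPA but with MKI67. For this comparison the block compares first-run levels only, so it is not an alternative estimate of the same difference. CENPA and ECT2, counted among those that lost the FDR limit, lost it only in that fit (FDR 0.120 and 0.077). The labels give no replicate numbers that pair libraries across groups, so the run was the only block fitted. The wider spread at 24 h limits what can be shown there. Confidence intervals cover the spread between libraries, not differences between cultures.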
